A study of Mus musculus with 2 samples.

Results

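The genes described here are 10 general markers of monocytes and macrophages, taken by symbol from the 22216 gene rows of a deposited spleen expression table: Csf1r, Emr1, Cd68, Lyz1, Lyz2, Mrc1, Axl, Mertk, Ace and Treml4. All 10 were found, each as 1 row. Spleens of mice of genotype NOD.g7 and of genotype NOD.L7 were compared by RNA sequencing, with 1 library per genotype made from the pooled spleens of 3 mice. The NOD strain is inbred and spontaneously develops autoimmune diabetes. The labels do not say what g7 or L7 stand for, and no treatment, age or sex is given in the sources used here. The series title names the mice NOD and NOD.Lc7, and the table's LC7 column was read as NOD.L7.

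Monocytes are blood cells of the myeloid lineage that patrol vessels and enter tissues, and macrophages are resident phagocytes that clear dead cells, microbes and aged red cells. Many of these cells depend on signalling through the receptor encoded by Csf1r. Mouse monocytes include a classical subset, marked by Ly6C and CCR2, and a nonclassical subset, marked by CX3CR1 and the factor NR4A1. The spleen holds both, beside macrophages of the red pulp, which take up red cells and recycle their iron, and those of the marginal zone.

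Values are RPKM, which here count the covered bases of a gene, scaled to its length and to the mapped sequence of the library. Mapped sequence amounted to 9.12 Gb for NOD.g7 and 12.1 Gb for NOD.L7. A gene was kept when it reached an RPKM of 1 in either library, which 11141 genes did, and all 10 genes passed this filter in both libraries. The log2 ratio was that of NOD.L7 to NOD.g7 after adding 1 to each RPKM. With 1 library per genotype there was no test and no p-value, so every difference is one between these libraries. A 95% counting interval of the plain ratio is given with each gene and covers counting error only.

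Of the 10 genes, 9 were higher in NOD.L7, beside 56.2% of all kept genes, but Lyz1 and Lyz2 lay close to equality and Lyz1 turned to the other side when the median ratio of all genes was set to 0. None reached an absolute log2 ratio of 1, which 0.709% of kept genes did. Mertk and Mrc1 were past 1.5-fold in the upward direction, beside 1.76% of kept genes, and Axl lay just short of that line. Ace alone was lower, and none of the 10 was past 1.5-fold downward, which 1.16% of kept genes were. The median log2 ratio of the 10 was 0.32, against 0.02 over all kept genes. In whole spleen, fewer cells of a type and less RNA per cell cannot be told apart.

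**Figure D1:**
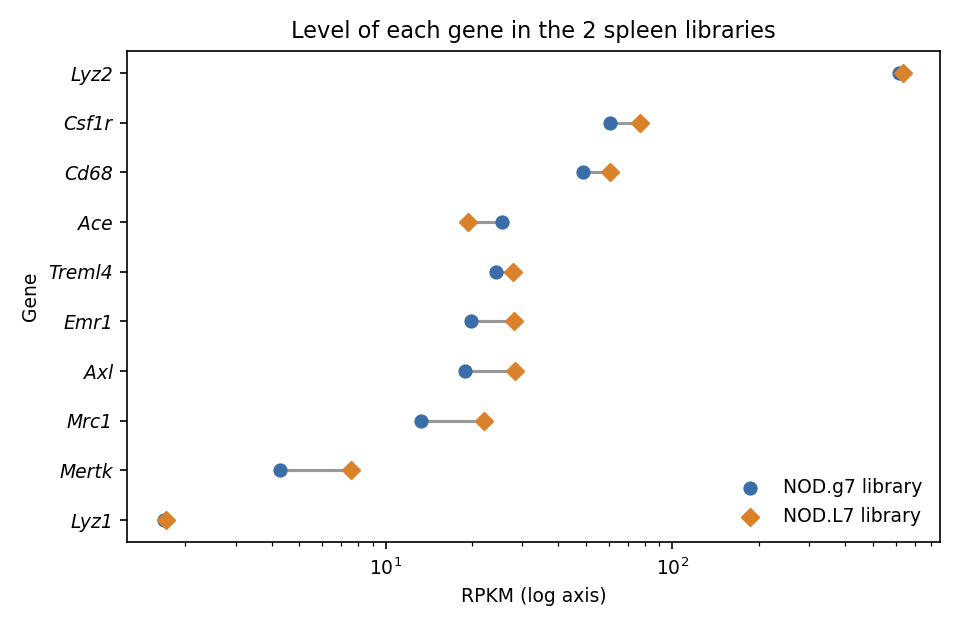
RPKM of the 10 genes (log axis) in the NOD.g7 library (circles) and the NOD.L7 library (diamonds), 1 library per genotype and no error bars. Mertk, Mrc1, Axl and Emr1 show the widest gaps to the right, Ace is the gene with its NOD.L7 point on the left (25.5 and 19.3), and the points of Lyz1 and Lyz2 nearly coincide.

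The lysozyme genes are shown by sequence first, because their values depend on telling near-identical neighbours apart. Lyz1 (chromosome 10, 116724851 to 116729924 in mm9) and Lyz2 (116714597 to 116719328) each encode a lysozyme, the enzyme that cuts bacterial cell walls. Lyz2 is the form of macrophages, monocytes and neutrophils, and Lyz1 is best known from Paneth cells of the gut. The first 300 bases of each coding sequence are shown from GENCODE M21, 5′ to 3′, with the bases that differ between the genes in capitals.
Lyz1: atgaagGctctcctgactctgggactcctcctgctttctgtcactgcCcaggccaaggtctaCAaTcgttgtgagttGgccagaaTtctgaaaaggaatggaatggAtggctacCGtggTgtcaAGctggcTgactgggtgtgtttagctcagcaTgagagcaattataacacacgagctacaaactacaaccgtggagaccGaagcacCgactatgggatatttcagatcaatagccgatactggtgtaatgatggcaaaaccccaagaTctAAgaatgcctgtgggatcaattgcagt
Lyz2: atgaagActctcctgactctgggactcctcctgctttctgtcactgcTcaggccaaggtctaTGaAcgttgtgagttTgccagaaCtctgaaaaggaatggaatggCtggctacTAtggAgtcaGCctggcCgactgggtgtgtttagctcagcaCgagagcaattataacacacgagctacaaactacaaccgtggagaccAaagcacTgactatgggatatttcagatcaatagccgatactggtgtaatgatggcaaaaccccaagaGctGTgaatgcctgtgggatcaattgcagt
Over all 447 coding bases the genes differed at 22 positions, 20 of them in the part shown, an identity of 95.1%, and the longest run without a difference was 118 bases. Over the whole transcripts, 24 of the 1164 windows of 100 bases in Lyz1 (2.06%) were also found in Lyz2, and 195 of 1214 windows of 50 bases (16.1%). Most stretches of 100 bases therefore carried at least 1 distinguishing base of the reference.

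The likeness extended to the sequence before the start. The 120 bases before each start, from RefSeq on GRCm38.p6 and on the minus strand, at chr10:117292869-117292988 for Lyz1 and chr10:117282273-117282392 for Lyz2, are shown with differing bases in capitals.
Lyz1: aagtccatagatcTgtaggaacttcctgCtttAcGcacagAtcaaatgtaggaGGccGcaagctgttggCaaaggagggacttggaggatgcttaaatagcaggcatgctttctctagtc
Lyz2: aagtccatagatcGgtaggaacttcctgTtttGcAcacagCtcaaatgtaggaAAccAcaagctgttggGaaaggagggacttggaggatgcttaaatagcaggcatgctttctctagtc
They differed at 9 positions, with 92.5% identity, and the 50 bases nearest to the start were the same.

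The levels of the pair were far apart in both libraries. Lyz2 had the highest RPKM of the 10 genes, 618 in the NOD.g7 library and 636 in the NOD.L7 library, and Lyz1 had 1.69 and 1.71, in the same order, which is kept below. Per length, Lyz2 exceeded Lyz1 365-fold in NOD.g7 and 372-fold in NOD.L7. The treatment of reads with several matches is not given in the sources used here, so the level of Lyz1 is uncertain. Between the libraries, Lyz2 differed by a ratio of 1.03 (counting interval 1.01 to 1.04) and Lyz1 by 1.01 (0.771 to 1.33). These were the smallest differences among the 10 genes, and the interval of Lyz1 covers equality. The remaining genes on the lysozyme list, such as Lyzl1 and Lyzl4, were all under an RPKM of 1 in both libraries.

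The lineage receptors Csf1r and Emr1 were moderately higher in NOD.L7. Csf1r (chromosome 18, 61265226 to 61290793), the receptor for CSF1 and interleukin-34 that supports many monocytes and macrophages, was at 60.7 and 77.0. Its ratio was 1.27 (counting interval 1.24 to 1.30), and 94.7% of kept genes had a lower log2 ratio. Emr1 (chromosome 17, 57498109 to 57622952), which encodes the F4/80 antigen of mouse macrophages, was at 19.8 and 28.0, a ratio of 1.41 (1.35 to 1.48). Emr1 thus differed more than Csf1r, with counting intervals that did not overlap. The longest GENCODE transcript of Csf1r overlaps the end of Hmgxb3 on the other strand and shares 16.8% of its 100-base windows with that gene. The counting interval of Csf1r rests on the length of that transcript. In the table the 2 rows are 138 bases apart, and Hmgxb3 was at 12.3 and 12.8.

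The ligands of Csf1r were low, and the receptor chains for GM-CSF were higher in NOD.L7. Csf1 was at 3.04 and 3.50, and Il34 was at 0.0119 and 0.0270, which is about 1 and 3 fragments, so no ratio is given for it. Of the 4 other kept genes of the CSF1 and GM-CSF list, all were higher in NOD.L7, beside 56.2% of all kept genes. Csf2rb, the shared beta chain of the GM-CSF, interleukin-3 and interleukin-5 receptors, was at 15.6 and 24.0 and was the 1 gene past 1.5-fold, by a margin lost when the median ratio was set to 0. Csf2rb2, a near-identical neighbour with which it may share reads, was at 4.88 and 6.44.

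The myeloid transcription factors split evenly, with 8 of 16 higher and 8 lower in NOD.L7, beside 56.2% of all kept genes higher. Their median log2 ratio was 0.06. All those past 1.5-fold were higher, among them Maf, Spic and Batf3. Maf, a leucine zipper factor of macrophages and T cells, was at 8.31 and 14.4. Spic, the factor required for red pulp macrophages, was at 20.0 and 32.9. The general factor PU.1, listed under its older symbol Sfpi1, was closer at 60.1 and 66.1, and Irf8, which monocytes, dendritic cells and B cells use, was lower at 129 and 118.

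**Figure D2:**
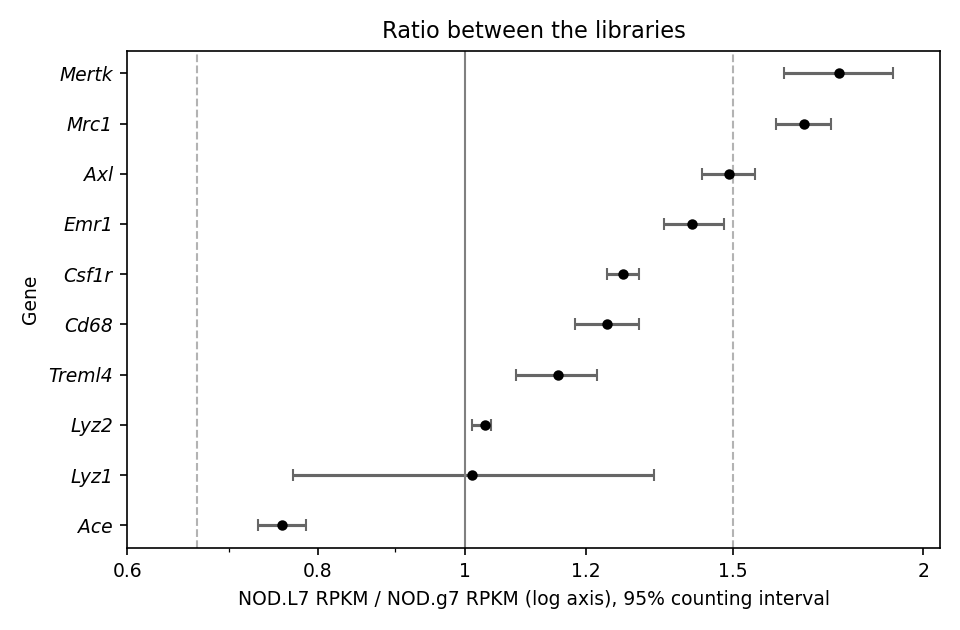
Ratio of NOD.L7 to NOD.g7 RPKM for each gene (log axis), with the 95% counting interval, which leaves out variation between mice, and dashed lines at 1.5-fold in each direction. Mertk (1.76) and Mrc1 (1.67) lie right of the line, the interval of Axl crosses it, and Ace (0.758) is the 1 gene left of equality with its whole interval.

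Cd68 (chromosome 11, 69477873 to 69479564), a heavily glycosylated protein of late endosomes and lysosomes in macrophages, was at 48.7 and 60.4. The ratio of 1.24 (counting interval 1.18 to 1.30) was close to that of Csf1r, and the intervals overlapped. Cd68 stood at 80.2% of the Csf1r level in NOD.g7, against 78.5% in NOD.L7. The genes of the lysosome list were nearer to equality, with 18 of 23 kept genes higher, beside 56.2% of all kept genes. Of the list 5 were lower, none was past 1.5-fold, and the median log2 ratio was 0.07. In this list the protease gene Ctsb was at 133 and 165. The LAMP proteins, to whose family CD68 belongs, were at 94.2 and 100 for Lamp1 and at 16.8 and 19.9 for Lamp2.

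The receptors for uptake and clearance differed most. Mrc1 (chromosome 2, 14151041 to 14253650) encodes the mannose receptor CD206, an endocytic receptor for sugars on macrophages and sinusoidal endothelium, and was at 13.3 and 22.1. Its ratio was 1.67 (counting interval 1.6 to 1.74), a log2 ratio of 0.70. Mertk (chromosome 2, 128524733 to 128627924), the receptor kinase by which macrophages recognise and engulf apoptotic cells, was at 4.28 and 7.55. Its ratio of 1.76 (1.62 to 1.91) was the highest of the 10 genes, although the interval overlaps that of Mrc1. For each of the pair, 98.9% of kept genes had a lower log2 ratio.

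Relatives of the mannose receptor were lower or near the floor. Ly75, the endocytic receptor DEC-205 of dendritic cells and B cells, was lower in NOD.L7 at 11.3 and 7.85, short of 1.5-fold. Mrc2, the endocytic collagen receptor of stromal cells, was under an RPKM of 1 in both libraries.

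Axl (chromosome 7, 26541519 to 26573752) belongs with Mertk and Tyro3 to the TAM receptor kinases, which bind the bridging proteins Gas6 and protein S on dying cells and dampen inflammatory signalling. Axl was at 18.9 and 28.2, a ratio of 1.49 (counting interval 1.43 to 1.55). Tyro3 was at 1.70 and 2.28, a ratio of 1.34 (1.17 to 1.53). All 3 TAM receptors were thus higher in NOD.L7, beside 56.2% of all kept genes. Axl and Mertk are among the genes already counted above, so this is not a separate observation. Of the 3 receptors, Mertk alone was past 1.5-fold on the log2 scale, beside 1.76% of kept genes upward. Their ligands were low, with Gas6 at 1.23 and 0.988 (ratio 0.802, counting interval 0.635 to 1.02) and Pros1, which encodes protein S, at 2.12 and 2.18 (1.03, 0.889 to 1.19).

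Of the wider apoptotic cell clearance list, 19 of 24 genes were kept, with 13 higher, 6 lower and 4 past 1.5-fold, all upward. Of all kept genes, 56.2% were higher and 1.76% were past 1.5-fold upward. The median log2 ratio was 0.14. The genes past the line were the 3 chains of complement C1q, which macrophages make and which tags dying cells, and Cd300lf, a lipid-binding receptor of myeloid cells. C1qb was at 40.7 and 74.9, C1qa at 52.1 and 90.3, C1qc at 42.4 and 72.7 and Cd300lf at 9.42 and 16.7. The scavenger receptor Cd36 (18.9 and 18) and the bridging protein Mfge8 (5.24 and 5.14) were near equality.

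**Figure D3:**
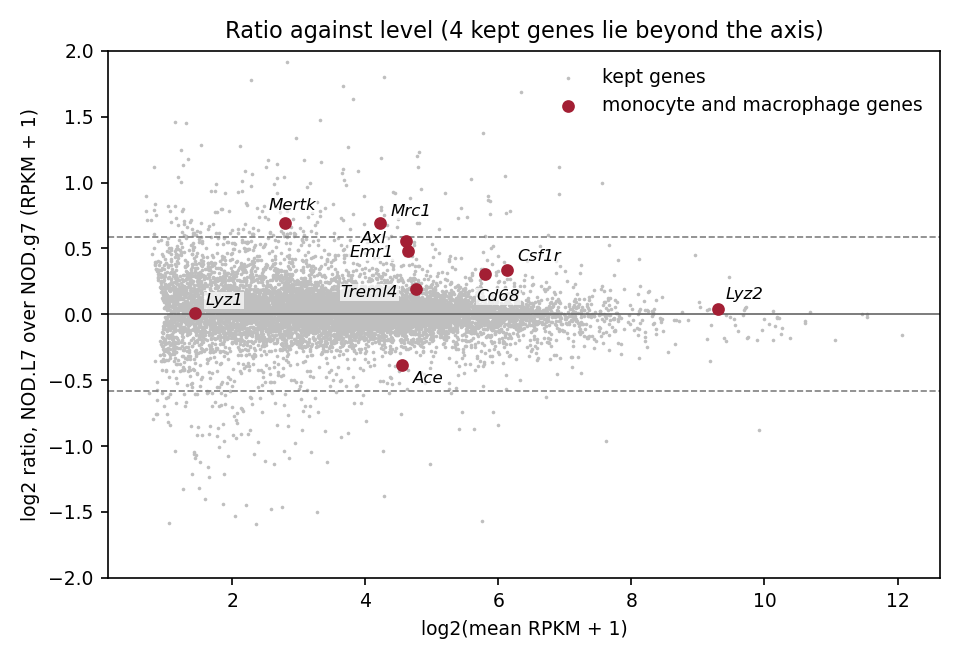
Log2 ratio of NOD.L7 to NOD.g7, computed on RPKM + 1, against log2 of the mean RPKM + 1 for the 11141 kept genes (grey) and the 10 monocyte and macrophage genes (red), with dashed lines at 1.5-fold. Mertk and Mrc1 lie above the upper line, Axl just under it and Ace between 0 and the lower line, while Lyz1 and Lyz2 lie next to 0 at opposite ends of the level range.

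Ace and Treml4, both marks of nonclassical monocytes, went in different directions. Ace (chromosome 11, 105829259 to 105851278) encodes angiotensin-converting enzyme, a membrane peptidase also found on endothelium, and was at 25.5 and 19.3. The ratio was 0.758 (counting interval 0.731 to 0.786), a log2 ratio of -0.38, and 2.39% of kept genes had a lower one. Treml4 (chromosome 17, 48403661 to 48414724), a TREM-like receptor of nonclassical monocytes, of macrophages and of dendritic cells, was at 24.2 and 27.8, a ratio of 1.15 (1.08 to 1.22). In NOD.g7 Ace had the higher level of the pair, and in NOD.L7 Treml4 did. An antisense gene, Gm11651, overlaps Ace in GENCODE and shares 2.10% of the 100-base windows of its longest transcript. Strandedness is not given in the sources used here, so reads of the pair could not be told apart there.

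The other 18 genes of the nonclassical list were balanced, with 8 higher, beside 56.2% of all kept genes, 10 lower and a median log2 ratio of -0.04. Cx3cr1, the fractalkine receptor, was the 1 gene past 1.5-fold, lower in NOD.L7, beside 1.16% of kept genes in that direction. It was at 13.2 and 8.44 (ratio 0.640, counting interval 0.605 to 0.677). With a pseudocount of 0.1 the lipid-binding gene Fabp4, at 3.56 and 2.25, passed as well. Nr4a1, the factor these monocytes require, was at 29.5 and 26.3, while the Fc receptor gene Fcgr4 was higher at 10.3 and 14.5. The adhesion receptor gene Emr4, a relative of Emr1, was at 18.4 and 20.9.

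In the classical monocyte list 12 of 16 genes were higher in NOD.L7 and 4 lower, beside 56.2% of kept genes higher, with a median of 0.20. Its 3 genes past 1.5-fold, beside 1.76% of kept genes in that direction, were Cd14, Vcan and Hp, and the summed RPKM of the list was 827 and 830. Cd14, the lipopolysaccharide co-receptor, was at 7.64 and 29.1. Vcan, the proteoglycan versican, was at 0.50 and 2.30, so it passed the filter only through NOD.L7, where it is high. The count of this list past 1.5-fold was 2 at a filter of RPKM 5 and 4 with a pseudocount of 0.1 or 0.5. Hp, which encodes the haemoglobin-binding protein haptoglobin, was at 24.4 and 47.0. The defining marks differed less, with the chemokine receptor gene Ccr2 at 29.5 and 36.2 and the near-identical genes Ly6c1 (4.61 and 4.64) and Ly6c2 (6.09 and 6.63) at similar levels, which are uncertain because the copies may share reads. The difference between the classical and the nonclassical list was not tested.

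Relatives of Treml4 and of Ace were mostly higher in NOD.L7. Of 6 other kept genes of the TREM family and its adaptors, 5 were higher, beside 56.2% of all kept genes. Trem1, an activating receptor of neutrophils and monocytes, was past 1.5-fold at 2.57 and 6.76, beside 1.76% of kept genes upward. Trem1 lies near Treml4 on chromosome 17. The adaptor gene Tyrobp was at 174 and 202, Treml2 at 27.3 and 28.7, and Trem2 was under an RPKM of 1 in both libraries. In the renin-angiotensin list 2 other genes were kept, and Anpep, an aminopeptidase of myeloid cells, was at 6.09 and 8.42.

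Set against Csf1r in the same library, the genes took different proportions. Ace went from 42.1% of the Csf1r level in NOD.g7 to 25.1% in NOD.L7, and Treml4 from 39.9% to 36.1%. Mrc1 went from 21.9% to 28.7%, Axl from 31.1% to 36.6%, Mertk from 7.06% to 9.81% and Emr1 from 32.6% to 36.3%. Cd68 held nearly the same proportion. Lyz2, at 1020% and 826%, was lower relative to Csf1r although its own RPKM was not.

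**Figure D4:**
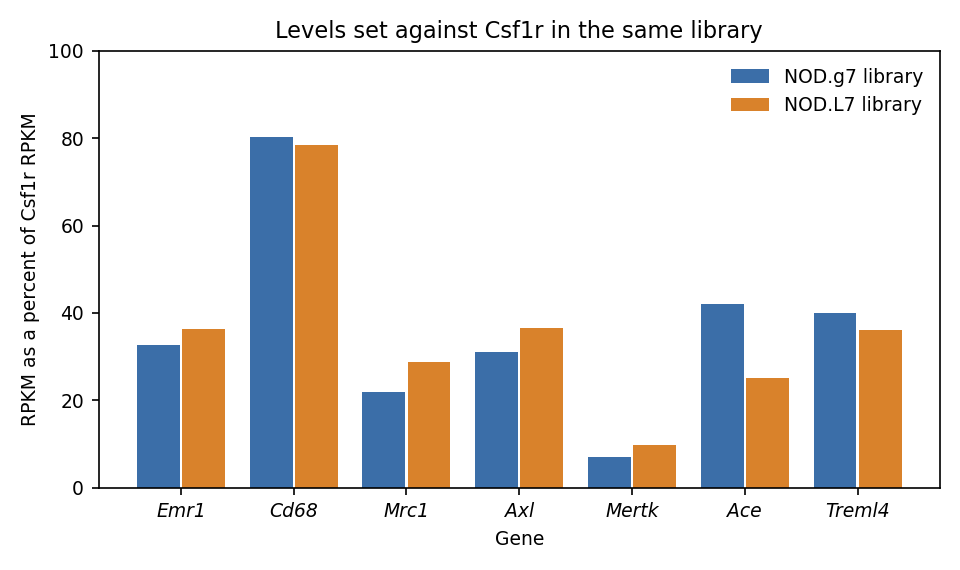
RPKM of 7 of the genes as a percent of the Csf1r RPKM in the same library, 1 bar per library and no error bars, with Lyz1 and Lyz2 left out for their range. The bars of Mrc1, Axl, Mertk and Emr1 are taller in NOD.L7, those of Ace (42.1% and 25.1%) and Treml4 are shorter, and those of Cd68 are nearly level.

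The 10 genes lie on 6 chromosomes, and the 3 kept genes on each side of every gene gave 54 distinct neighbours. Of these, 35 were higher in NOD.L7, beside 56.2% of all kept genes, with a median log2 ratio of 0.04, beside 0.02. Past 1.5-fold lay 1 of them, Trem1, beside 2.92% of kept genes in either direction, so the neighbours as a group lay near all kept genes. Around Axl on chromosome 7 none of the 6 neighbours was past the line, with Tgfb1 at 115 and 114 and Cyp2s1 at 2.16 and 2.38.

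Sequence before the start is shown for the pair past 1.5-fold and for Ace, the gene lower in NOD.L7. These are the 250 bases before the start on the plus strand, from RefSeq on GRCm38.p6, at chr2:14229164-14229413 for Mrc1, chr2:128698665-128698914 for Mertk and chr11:105967698-105967947 for Ace. Capitals mark GAGGAA on either strand, a core of sites for PU.1 and related ETS factors, which reads TTCCTC on the strand shown when it lies on the other.
Mrc1: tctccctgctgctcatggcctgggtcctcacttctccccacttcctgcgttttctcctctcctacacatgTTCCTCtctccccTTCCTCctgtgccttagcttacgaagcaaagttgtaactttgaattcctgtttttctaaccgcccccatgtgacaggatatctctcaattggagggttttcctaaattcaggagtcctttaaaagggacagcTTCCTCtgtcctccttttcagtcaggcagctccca
Mertk: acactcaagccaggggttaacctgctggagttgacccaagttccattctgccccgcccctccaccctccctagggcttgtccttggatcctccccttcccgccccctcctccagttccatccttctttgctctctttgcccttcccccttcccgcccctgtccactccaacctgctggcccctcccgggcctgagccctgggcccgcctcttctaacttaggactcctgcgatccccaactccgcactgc
Ace: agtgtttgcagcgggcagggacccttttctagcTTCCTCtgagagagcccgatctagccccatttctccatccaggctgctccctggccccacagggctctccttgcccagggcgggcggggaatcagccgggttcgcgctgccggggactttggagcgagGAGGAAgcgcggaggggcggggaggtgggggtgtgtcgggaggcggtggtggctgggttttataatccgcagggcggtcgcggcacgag
The window of Mrc1 held 3 matches, that of Ace 2 and that of Mertk 0. Among the 8 genes with an entry, all but Csf1r and Emr1, 5 had a match, where the first of 2 starts was used for Ace. Of all 32851 promoters of the same length, 23.3% had one. A match is a description of letters and not a bound site.

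Markers of other spleen cells differed between the libraries too, and their part in the values above was not tested. Beside all marker counts below stand 56.2% of kept genes higher in NOD.L7, 1.76% past 1.5-fold upward and 1.16% downward. Red pulp macrophage markers had 10 of 11 kept genes higher in NOD.L7, 8 past 1.5-fold, a median log2 ratio of 0.69 and a summed RPKM of 375 and 605. With the median ratio of all genes set to 0, 7 were past 1.5-fold. The 1 lower gene was Epor, at 1.94 and 1.57. The 8 include Spic and the C1q genes given above under other lists, so the lists are not separate observations. Of this list Cd163, which takes up haemoglobin, was at 5.26 and 13 and Vcam1, an adhesion molecule of red pulp macrophages, at 43.8 and 91.5, while Clec4f, a mark of liver macrophages, was listed at 0 in both libraries. Marginal zone macrophage markers had 5 of 5 kept genes higher, a median log2 ratio of 0.26 and a summed RPKM of 19.2 and 33.1, and the scavenger receptor gene Marco was at 3.18 and 4.0. The gene of that list past 1.5-fold was Siglece, a lectin that neutrophils and monocytes carry as well, at 8.49 and 19.2. Without Siglece, a comparison chosen after seeing the data, the sum was 10.7 and 13.9 and the median 0.24.

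Neutrophils also express Lyz2. Of their 14 listed markers 13 were matched, with 9 higher, 4 past 1.5-fold, a median of 0.19 and a summed RPKM of 900 and 1170. None was listed at 0. The chemokine receptor gene Cxcr2, with the largest ratio of the list, was at 15.6 and 37.1. The 4 lower were the granule protein genes Camp (39.1 and 34.5), Ltf (29.0 and 28.4), Mpo (3.07 and 2.34) and Elane (1.64 and 1.2). Dendritic cell markers, which matter for Axl and Treml4, had 6 of 12 higher, a median of 0.11 and a summed RPKM of 180 and 189. Eosinophils carry F4/80, the product of Emr1, and of their markers 2 of 4 kept genes were higher, with Ccr3 at 5.81 and 10.6 and Ear1, of a family of near-identical genes with uncertain levels, at 8.57 and 5.46.

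Endothelium expresses Ace and Mrc1. Of its markers and those of stroma, 15 of 16 were matched and 4 were kept, with a summed RPKM of 78.0 and 77.5 that came mostly from Pecam1, which leukocytes express too. Vwf was at 1.40 and 1.73 and Cdh5 at 0.957 and 1.09, and Dcn, Madcam1 and Ccl19 were listed at 0 in at least 1 library. Of the lymphoid and red cell markers, those of B cells were lower in NOD.L7 for 9 of 10 genes, with a median of -0.29 and a summed RPKM of 2870 and 2330. The 1 B cell gene past 1.5-fold was Fcer2a, the low-affinity IgE receptor CD23, at 257 and 132. For NK cells 8 of 9 were lower, 7 of them past 1.5-fold, with a median of -0.74 and sums of 238 and 119. For erythroid cells 11 of 12 listed genes were matched, and all 11 were kept and lower, 8 of them past 1.5-fold. Their median was -0.88 and their sums were 130 and 61.9. Spna1, past 1.5-fold at 2.9 and 0.792, passed the filter only through NOD.g7, where it is high. T cell markers had 4 of 10 higher, a median of -0.01 and sums of 1260 and 1230. The 1 gene past 1.5-fold was the co-receptor gene Cd8a, lower at 53.7 and 31.7. Cd8b1 was lower too at 81.8 and 54.9, while the other co-receptor gene, Cd4, was higher at 106 and 136.

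**Figure D5:**
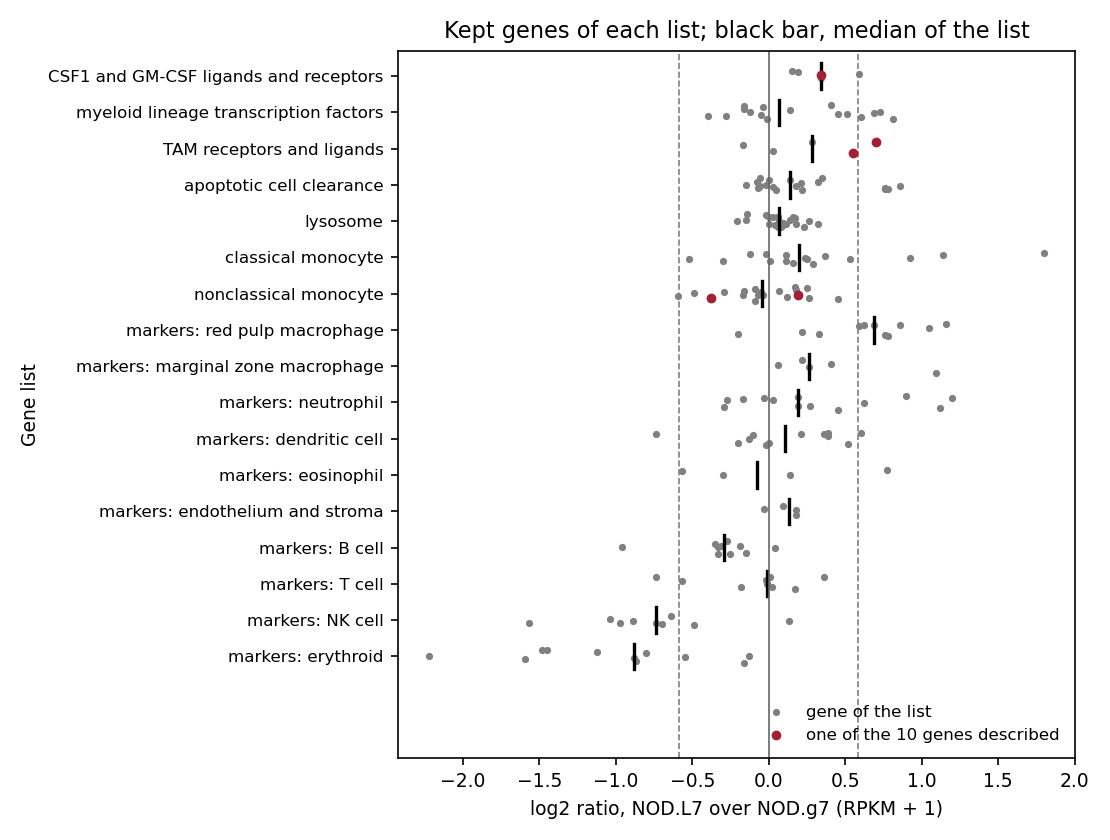
Log2 ratio of NOD.L7 to NOD.g7 (RPKM + 1) for the kept genes of each list (grey, or red for the genes described here), with a black bar at the median of the list and dashed lines at 1.5-fold. The red pulp macrophage markers lie furthest right (median 0.69), the nonclassical monocyte list is centred near 0 (median -0.04), and the erythroid and NK cell markers lie furthest left.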

How the data were processed

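Whole spleen RNA was sequenced from 2 genotypes, with 1 library each from 3 pooled mice, extracted on RNeasy columns and prepared with TruSeq, per the labels. The authors deposited 1 table of RPKM values on coordinates of build mm9. The tools, per the submitters' processing notes, were CASAVA 1.8.2 and SAMtools 0.1.18. The gene models, strandedness, alignment settings and handling of multiply matching reads were not given in the sources used here.

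The 10 genes and the 23 lists were chosen with earlier results of these data known. Some genes were on several lists. Symbols of list genes were matched directly or through RefSeq synonyms. Log2 ratios used a pseudocount of 1, which understates the difference of low genes, and a gene was kept at an RPKM of 1 in either library. The size rules were an absolute log2 ratio of 1 and of 0.585 (1.5-fold). Genes named beside the 10 were up to 3 per list with the largest absolute ratio and 20 genes fixed by name. Some genes that this rule names are left out of the text. Further genes were chosen after their values were seen. These were Cd36, Mfge8, C1qc, Batf3, Pecam1, Clec4f, Dcn, Madcam1, Ccl19 and Hmgxb3. Camp, Ltf, Mpo, Elane, Epor, Spna1, the lysozyme relatives and the neighbours of Axl were chosen in the same way.

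Depth was recovered from single-exon genes under 2500 bases whose span equalled their GENCODE M21 exon. All low values, 93 for NOD.g7 and 95 for NOD.L7, each under 400 bases, were whole numbers of bases within 0.15 at the depths given, and 14 and 17 of them were multiples of 100. The RPKM thus counts covered bases, not reads, and no count model was applied. Fragments were estimated as the covered bases of the longest GENCODE transcript divided by 200, and intervals are exact binomial (Clopper-Pearson). The procedures were tested on simulated data. The calculations used Python 3.11.15, pandas 2.3.3 and scipy 1.17.1.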

Additional observations from a re-analysis of the deposited data

How the results depend on the processing

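No replicate could be left out, and no setting shows how the values vary between mice. No paired analysis was possible because there is a single library on each side. The 1.5-fold rule was passed by Mertk and Mrc1 under all 7 alternatives run (a pseudocount of 0.1 or 0.5, no filter or one at RPKM 5, median centring, a TMM factor, and Lyz1 and Lyz2 summed), and no gene of the 10 reached an absolute log2 ratio of 1. The number higher in NOD.L7 was 9, or 8 with centring or the TMM factor, where Lyz1 was at -0.01, and 8 where Lyz1 was filtered out or summed. The median of the 10 ran from 0.30 to 0.34. Of all kept genes, 79 were past an absolute log2 ratio of 1 and 325 past 1.5-fold. The first count was 166 with a pseudocount of 0.1, 124 with 0.5 and 52 at a filter of RPKM 5, and the other was 557 with 0.1 and 185 at RPKM 5. The filter at RPKM 5 drops low genes by construction, and a smaller pseudocount damps their ratios less without changing which genes are kept. Of values for lists, 245 stayed the same and 31 moved. A list median was taken as the same within the median counting error of the 10 genes, and a count within 1.5 times the main count. At RPKM 5 the median of the myeloid transcription factors turned from 0.06 to -0.01 and that of the endothelium and stroma markers from 0.14 to -0.03. That filter also moved the medians of the marginal zone macrophage (0.26 to 0.75), dendritic cell (0.11 to 0.21) and erythroid markers (-0.88 to -1.45), and no filter moved that of the clearance list from 0.14 to 0.04. With the TMM factor 2 T cell genes, not 1, and 7 red pulp macrophage genes, not 8, were past 1.5-fold. Depth limits Lyz1, whose ratio has a counting interval of 0.771 to 1.33.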
